A study of Mus musculus with 10 samples.

Results

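A set of 10 genes of the major histocompatibility complex (MHC) class I pathway were followed in mouse ovaries of different age and treatment: the heavy chains H2-K1, H2-D1 and H2-T23, the light chain B2m, the peptide transporter subunits Tap1 and Tap2, the loading factor Tapbp, the immunoproteasome subunits Psmb8 and Psmb9, and the transactivator Nlrc5. They were chosen by gene name, and all 10 were found among the 55487 genes of the table. Class I molecules are carried by nearly every nucleated cell and show it fragments of its own proteins, which the proteasome cuts, the TAP transporter moves into the endoplasmic reticulum and tapasin helps to load onto a heavy chain paired with β2-microglobulin. Cytotoxic T cells and natural killer cells read these complexes. Interferon-γ is the best known inducer of the pathway, through IRF1 and through NLRC5, which binds with RFX, CREB and NF-Y proteins at class I promoters, and leukocytes and endothelial cells carry more class I than most other cells.

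There were 4 Control, 3 Aged and 3 Aged+CF ovaries, each with its own library and a replicate number from its title (31 to 34 for Control, 31, 33 and 34 for Aged, 30, 32 and 34 for Aged+CF). Separate animals are not stated ovary by ovary. All mice had a C57BL/6J background, Control mice were 8 weeks old and the mice of both other groups 11 months old by their labels. Treatment in Aged+CF was 200 μL of CEFFE, a protein extract of fat tissue without cells, at 3 μg/μL, given into the tail vein every 2 days for 2 weeks, while saline was given in Control and Aged. All mice of the 3 groups had been injected with 10 IU of PMSG, a gonadotropin that stimulates follicle growth, 48 h before the ovaries were taken. Whole ovaries were used, so fewer cells of a type and less RNA per cell cannot be told apart.

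Levels are given as CPM, the read count of a gene scaled to the library size after TMM scaling, for single ovaries in the order of their replicate numbers or as the mean ± SD of a group. Between 15761789 and 21318254 reads were counted per ovary, 18956 genes passed the filter on low counts and all 10 members were among them, with at least 141 reads for a member in any ovary. DEGs had to differ by 1.5-fold or more with a Benjamini-Hochberg adjusted p under 0.05 in edgeR's quasi-likelihood F test, and calls at the unadjusted p under 0.05 are given beside these. Replicates spread most in Aged, where the biological coefficient of variation was 0.377, against 0.209 for Control and 0.193 for Aged+CF. Oocyte, granulosa cell and theca cell markers were counted in all 3 groups, at levels that differed between them (given with the other cell markers). Aged replicate 34 stood apart, with 7.33 summed CPM of 8 oocyte markers against 69.4 and 76.6 in the other Aged ovaries. The summed level of 3 oviduct markers was 281 CPM in this ovary and 339 CPM in Control replicate 33, and between 1.55 and 31.5 CPM in the other 8 ovaries.

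The start regions of the 4 genes that were DEGs in Aged ovaries are shown because promoters of this family share short elements. Each sequence holds 250 bases before and 50 after the RefSeq start on GRCm38.p6, read 5′ to 3′ on the strand of the gene, and such regions were found for 8 members, not for Tap2 and Nlrc5. Capitals mark TGACG, the core of the X2 box, and CCAAT or its reverse complement ATTGG, the Y box, where these lie in the spaced arrangement. They also mark GAANNGAAA on either strand, the form of the interferon response element with 2 bases between GAA and GAAA. In H2-T23 the capitals mark its CCAAT.
B2m: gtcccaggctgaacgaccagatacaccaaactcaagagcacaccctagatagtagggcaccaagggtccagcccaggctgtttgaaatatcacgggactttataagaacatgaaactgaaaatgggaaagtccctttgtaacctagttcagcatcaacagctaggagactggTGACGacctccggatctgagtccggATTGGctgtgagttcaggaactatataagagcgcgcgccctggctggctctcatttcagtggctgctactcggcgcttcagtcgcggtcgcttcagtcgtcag
H2-K1: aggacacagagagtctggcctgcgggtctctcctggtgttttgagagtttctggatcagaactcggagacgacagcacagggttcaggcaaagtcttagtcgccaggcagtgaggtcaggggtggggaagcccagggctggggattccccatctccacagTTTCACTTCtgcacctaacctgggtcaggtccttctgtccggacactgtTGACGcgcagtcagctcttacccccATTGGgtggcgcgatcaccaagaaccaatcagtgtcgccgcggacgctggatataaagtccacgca
H2-D1: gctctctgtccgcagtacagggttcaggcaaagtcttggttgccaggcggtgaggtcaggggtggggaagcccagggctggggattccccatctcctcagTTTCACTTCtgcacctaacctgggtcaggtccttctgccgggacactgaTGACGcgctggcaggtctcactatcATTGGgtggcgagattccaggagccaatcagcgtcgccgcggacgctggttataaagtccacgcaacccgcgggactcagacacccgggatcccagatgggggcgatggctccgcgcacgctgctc
H2-T23: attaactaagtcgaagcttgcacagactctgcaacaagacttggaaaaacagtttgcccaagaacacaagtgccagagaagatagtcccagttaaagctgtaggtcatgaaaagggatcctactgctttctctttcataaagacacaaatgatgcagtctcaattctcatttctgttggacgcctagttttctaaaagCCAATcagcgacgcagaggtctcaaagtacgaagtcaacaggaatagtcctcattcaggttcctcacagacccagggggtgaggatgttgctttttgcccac

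The regions lie at chr2:122147437-122147736 on the plus strand for B2m, chr17:34000298-34000597 on the minus strand for H2-K1, chr17:35262844-35263143 on the plus strand for H2-D1 and chr17:36032652-36032951 on the minus strand for H2-T23. In B2m, H2-K1 and H2-D1, TGACG was followed by ATTGG with 20 bases between, at -78 to -49, -41 to -12 and -101 to -72 from the start. This arrangement, searched on both strands, was found in 26 of 27025 promoters of this length (0.0962%), and its spacing was chosen after these sequences had been read. Among 9 other class I heavy chains with a promoter, H2-M3 had it too. The short elements were taken from general knowledge of class I promoters, and the choice among them was also made with these sequences known. TGACG alone was in 21% and CCAAT alone in 37.9% of the promoters, and in 5 and 7 of the 8 members with a promoter. GAANNGAAA was in 7.56% of promoters and among the members in H2-K1 and H2-D1. It was also in 6 of the 9 other class I heavy chains with a promoter (H2-M2, H2-M3, H2-Q4, H2-Q6, H2-Q7 and H2-Q10). In Aged vs Control the log2 fold changes of these 6 ran from -0.40 (H2-Q10) and 0.03 (H2-M3) to 3.34 (H2-M2). Forms of GAANNGAAA with another spacing, such as gaaactgaaa in B2m and tttctctttc in H2-T23, were not searched and stand in lower case. These are matches of letters and no measurement of binding was analysed here.

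Of the members, 8 lie within 2.12 Mb of chromosome 17 (GENCODE M21, GRCm38), from Tapbp at chr17:33915899-33929292 to H2-T23 at chr17:36029773-36032855. Psmb9 (chr17:34181987-34187764, minus strand) and Tap1 (chr17:34187553-34197225, plus strand) overlap head to head by 212 bases, and Psmb8 (chr17:34197721-34201454) and Tap2 (chr17:34203527-34216321) follow. H2-K1 lies at chr17:33996017-34000347 and H2-D1 at chr17:35262730-35267499. B2m is on chromosome 2 (122147686 to 122153083), inside the span of Patl2 on the other strand, and Nlrc5 is on chromosome 8 (94434356 to 94527272). Only H2-K1 and H2-D1 among the 10 overlap no other annotated gene, and the strand setting of the counting is not given in the sources used here. Of the 50-base stretches of the longest coding transcript, 28.8% in H2-T23, 14.3% in H2-D1 and 8.79% in H2-K1 occur in transcripts of other genes, mostly of the same family, so reads of these genes can be split, and 2% or less do so in the other 7.

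In Aged ovaries the molecules that make up the class I complex rose together. H2-K1, H2-D1, H2-T23 and B2m were DEGs, higher in Aged, and no Aged ovary overlapped a Control ovary in any of the 4. Of all genes tested, 5.00% were DEGs higher in Aged by this rule, against 4 of the 10 members. The members had been chosen with earlier results of these data known, which limits comparison with this background. At unadjusted p, 5 members passed with a background of 8.79%, Psmb8 being the fifth. All 10 members had a positive log2 fold change, with a median of 0.58 against -0.000525 over all genes tested, of which 49.9% were above 0.

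B2m, the light chain shared by all classical class I molecules, had 230.1, 239, 203 and 241 CPM in Control, 362, 490.1 and 509 CPM in Aged and 253, 278 and 307 CPM in Aged+CF. The 3 groups did not overlap, with Aged highest and Aged+CF between. The log2 fold change in Aged vs Control was 0.99 (SE 0.13, adjusted p = 0.0049), a 1.99-fold rise. H2-D1, a classical heavy chain, had 295, 311, 274 and 280.3 CPM in Control, 401, 476 and 665 CPM in Aged and 340.1, 367 and 446 CPM in Aged+CF. Both older groups lay above Control and overlapped each other, and Aged replicate 34 was the highest ovary. Its log2 fold change in Aged vs Control was 0.82 (SE 0.17, adjusted p = 0.0131).

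H2-K1, the other classical heavy chain of this strain, had 163, 158, 159.8 and 151 CPM in Control, 213, 307 and 329 CPM in Aged and 181, 234 and 273 CPM in Aged+CF. Its 4 Control ovaries differed by no more than 1.08-fold, and all 6 older ovaries were higher. The log2 fold change in Aged vs Control was 0.84 (SE 0.17, adjusted p = 0.0125). H2-T23, the gene of the nonclassical molecule Qa-1, which presents signal peptides of other class I chains to NKG2A receptors, had 76.9, 62.2, 63.9 and 62.2 CPM in Control, 97.8, 128 and 119 CPM in Aged and 76, 134 and 108 CPM in Aged+CF. Only Aged+CF replicate 30 fell within the Control range. The log2 fold change in Aged vs Control was 0.80 (SE 0.18, adjusted p = 0.0183), and the adjusted p was 0.0544 without Control replicate 32 and 0.0545 without Control replicate 34. With limma voom, H2-K1 (0.56) and H2-D1 (0.58) came under 1.5-fold and only H2-T23 and B2m of the members were called, where 6.93% of all genes were called higher. Without Aged replicate 34, the 4 genes were still DEGs in edgeR, with log2 fold changes of 0.63 (H2-D1) to 0.94 (B2m), and the same held without both ovaries with many oviduct reads, at 0.61 to 0.89.

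**Figure D1:**
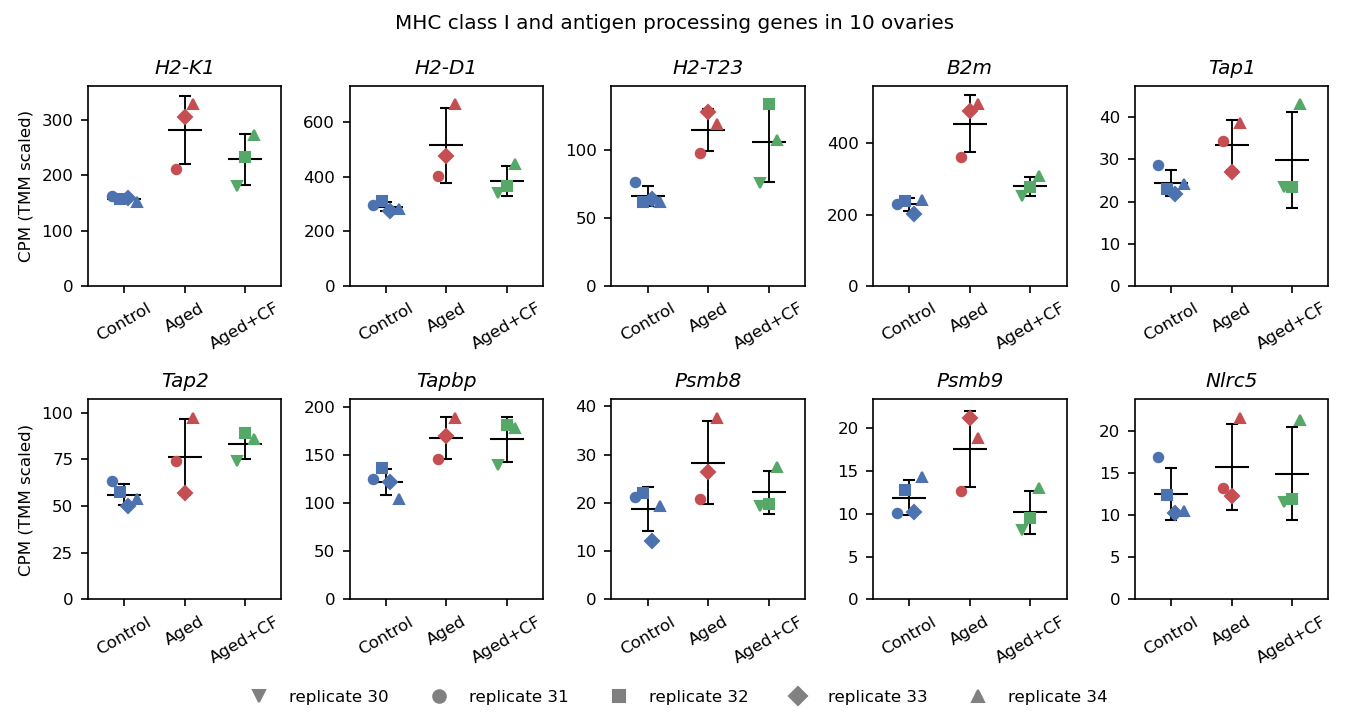
CPM (vertical axis, from 0) of each of the 10 genes in each ovary, by group, with symbols for replicate numbers and black bars for the mean ± SD (n = 4, 3 and 3). H2-K1, H2-D1, H2-T23, B2m and Tapbp have every Aged ovary above every Control ovary, and Aged+CF replicate 30 is the lowest of its group in all 10 genes.

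The genes of peptide transport and loading moved less. Tapbp, the gene of tapasin, had 125, 136, 122 and 105 CPM in Control, 145, 169 and 189 CPM in Aged and 139, 181 and 178 CPM in Aged+CF. Every older ovary was above every Control ovary, but the log2 fold change in Aged vs Control of 0.46 (SE 0.13, adjusted p = 0.043) was under 1.5-fold, and the adjusted p was 0.0681 without Aged replicate 34. Tap1 had 28.7, 23, 21.9 and 24.1 CPM in Control, 34.4, 27.1 and 38.8 CPM in Aged and 23.4, 23.4 and 43.1 CPM in Aged+CF. The groups overlapped in Tap1, and its log2 fold change in Aged vs Control was 0.45 (SE 0.23, adjusted p = 0.201). Tap2, which forms the transporter with Tap1, had 63.1, 57.2, 50.2 and 53.8 CPM in Control, 74.2, 57.1 and 97.3 CPM in Aged and 74.3, 89.3 and 86.1 CPM in Aged+CF. Aged replicate 33 lay within the Control range, and the log2 fold change in Aged vs Control was 0.44 (SE 0.16, adjusted p = 0.0954). Without that ovary it was 0.64 (adjusted p = 0.0216), a DEG.

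Psmb8 and Psmb9 encode β5i and β1i, which replace Psmb5 and Psmb6 products in the immunoproteasome. Psmb8 had 21.3, 22.1, 12.2 and 19.3 CPM in Control, 20.8, 26.4 and 37.7 CPM in Aged and 19.4, 19.8 and 27.4 CPM in Aged+CF. Control and Aged overlapped, the log2 fold change was 0.60 (SE 0.25) and the call rested on the unadjusted p (0.0393, adjusted p = 0.136). This call was lost without Aged replicate 34 (log2 fold change 0.37), Control replicate 33 (0.44) or Control replicate 34 (0.61, unadjusted p = 0.0621). Psmb9 had 10.2, 12.8, 10.2 and 14.3 CPM in Control, 12.6, 21.2 and 18.9 CPM in Aged and 8.08, 9.48 and 13.0 CPM in Aged+CF. Its log2 fold change in Aged vs Control was 0.57 (SE 0.23, adjusted p = 0.118), and without Aged replicate 31 it was 0.79 (adjusted p = 0.0489). Nlrc5 had 16.9, 12.3, 10.2 and 10.5 CPM in Control, 13.2, 12.3 and 21.6 CPM in Aged and 11.6, 11.9 and 21.3 CPM in Aged+CF. The 3 groups overlapped in this gene, with a log2 fold change in Aged vs Control of 0.33 (SE 0.29, adjusted p = 0.473).

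The second comparison asks whether CEFFE treatment was followed by another level of these genes in ovaries of the same age. B2m and Psmb9 were the members with the largest differences between Aged+CF and Aged, both lower in Aged+CF. The log2 fold change was -0.70 for B2m (SE 0.14, unadjusted p = 0.000624, adjusted p = 0.15), with all 3 Aged+CF ovaries below all 3 Aged ovaries. It was -0.79 for Psmb9 (SE 0.25, unadjusted p = 0.0095, adjusted p = 0.199), where Aged+CF replicate 34 at 13.0 CPM exceeded Aged replicate 31 at 12.6 CPM. By adjusted p, 0 members were DEGs with edgeR, against a background of 0.00528% (1 gene). With DESeq2 2 members were (B2m and Psmb9), where 2.83% of all genes with an adjusted p were called, and with limma 0 were, against 0.464%. By unadjusted p and 1.5-fold in edgeR these 2 members were called lower, with a background of 4.05%.

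H2-D1 had a log2 fold change of -0.42 (SE 0.18, adjusted p = 0.288), H2-K1 of -0.30 (SE 0.18, adjusted p = 0.424) and Psmb8 of -0.35 (SE 0.27, adjusted p = 0.538). The other 5 members were within -0.16 (Tap1) and 0.13 (Tap2), with H2-T23 at -0.12, Nlrc5 at -0.07 and Tapbp at -0.01. These 5 changed sign in at least 1 alternative processing. The median over the members was -0.23, against -0.021 over all genes tested, and 9 members were below 0 (52.6% of all genes). Only B2m had groups that did not overlap, lower in Aged+CF, with a background of 8.39%. The number of all genes called by adjusted p in this comparison rose from 1 to 556 without Aged replicate 34, and B2m then had a log2 fold change of -0.63 (adjusted p = 0.0508).

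**Figure D2:**
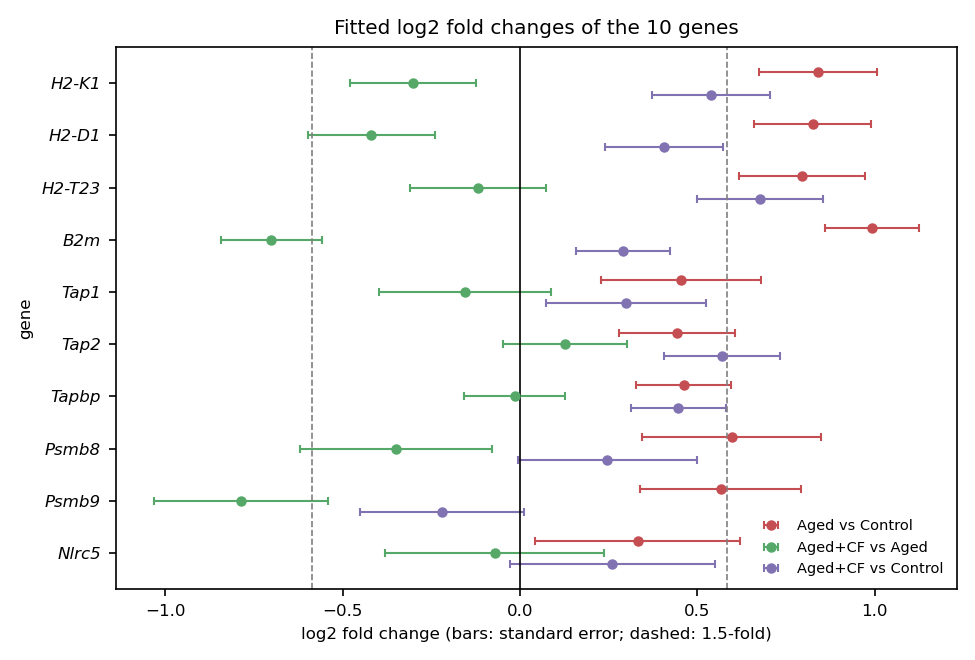
Fitted log2 fold change (horizontal axis) of each gene in the 3 comparisons, with bars for the SE and dashed lines at 1.5-fold. In Aged vs Control all 10 points are above 0, and in Aged+CF vs Aged those of B2m (-0.70) and Psmb9 (-0.79) are beyond the dashed line.

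Set against the ovaries of young mice, Aged+CF ovaries gave a log2 fold change above 0 in 9 of the 10 members (45.9% of all genes tested), and none of these passed the test by adjusted p in edgeR. The largest log2 fold changes were those of H2-T23 (0.68, SE 0.18, adjusted p = 0.154), Tap2 (0.57, SE 0.16, adjusted p = 0.18) and H2-K1 (0.54, SE 0.17, adjusted p = 0.201). Tapbp was at 0.45, H2-D1 at 0.41 and B2m at 0.29, and Psmb9 was the member below 0, at -0.22 (SE 0.23). By adjusted p, 0 members were DEGs with edgeR, with a background of 0.179%. With DESeq2 2 were (H2-T23 and Tap2), where 2.79% of all genes with an adjusted p were called, and with limma 0 were, against 2.68%. At unadjusted p and 1.5-fold in edgeR, H2-T23 was called, with a background of 3.33%. The call of H2-T23 was lost without Aged+CF replicate 32, where no member was called, and 3 members were called without Aged+CF replicate 30. H2-K1, H2-D1, B2m, Tap2 and Tapbp had all Aged+CF ovaries above all Control ovaries, with a background of 9.69%, and in Aged vs Control the 5 members without overlap stood against a background of 11.8%. The Aged ovaries enter 2 of the comparisons and the Control ovaries 2, so the values of a gene in these comparisons are not independent of each other.

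Within the older groups the same ovaries were often the highest or lowest. Aged replicate 34 was the highest Aged ovary in 8 members, with Aged replicate 33 highest in H2-T23 and Psmb9, and Aged+CF replicate 30 was the lowest Aged+CF ovary in all 10. The summed level of the 10 members was 927 to 1033 CPM in Control, 1374, 1714 and 2025 CPM in Aged replicates 31, 33 and 34, and 1126, 1348 and 1503 CPM in Aged+CF replicates 30, 32 and 34. Aged replicate 31 was thus below Aged+CF replicate 34. The median coefficient of variation of the members was 10.7% for Control (13.3% over all genes tested), 23.6% for Aged (22.7%) and 20.1% for Aged+CF (12.9%). Over the 10 ovaries, Pearson's r of log2 CPM between 2 members had a median of 0.669 and ran from -0.0122 to 0.949 in 45 pairs, which includes the differences between groups.

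Between genes, levels were compared per length. As CPM per kilobase of the longest coding transcript in GENCODE M21, the mean over the 10 ovaries was 362 for B2m, 183 for H2-D1, 134 for H2-K1, 63.1 for H2-T23, 51.4 for Tapbp, 20.4 for Tap2, 13.9 for Psmb8, 9.75 for Tap1, 9.68 for Psmb9 and 1.87 for Nlrc5. B2m transcripts, which serve all heavy chains, were thus the most abundant and those of Nlrc5 the scarcest. In this order the ranges over the 10 ovaries did not overlap for H2-K1 and H2-T23, Tapbp and Tap2, and Psmb9 and Nlrc5. The ranges of the other 6 neighbouring pairs overlapped, and the order within each ovary was not compared. By the deposited FPKM the order was the same but for Tapbp (21.6 FPKM), which ranked above H2-K1 (20.2 FPKM) and H2-T23 (14.2 FPKM). The lengths behind the deposited FPKM were longer than the annotated gene span for H2-K1 (10612 against 4331 bases), H2-T23 (6451 against 3083), Tap1 (11741 against 9673), Psmb8 (5327 against 3734) and Psmb9 (6989 against 5778), and equal to the transcript for B2m (860 bases), so FPKM levels of different genes are not on the same footing. Comparisons of a gene between ovaries are not touched by this length.

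Lists of other genes of the pathway were written from general knowledge, with earlier results of these data known. They comprised 71 genes in the table, 65 of them tested. In Aged vs Control 6 were DEGs and higher, beside 5.00% of all genes tested, 0 were lower, and 11 were called higher at unadjusted p, beside 8.79%, with a median log2 fold change of 0.25. Of 11 other class I heavy chains tested, H2-Q6 and H2-M2 were DEGs, and without Aged replicate 34 H2-M2 alone was. H2-Q6 had 18.1 ± 2.17 CPM in Control and rose to 38.4 ± 18.1 CPM in Aged (log2 fold change 1.09, SE 0.32, adjusted p = 0.047), with 24.5, 31.9 and 58.9 CPM in Aged replicates 31, 33 and 34. Its log2 fold change was 0.68 without Aged replicate 34 (adjusted p = 0.103), and the call was also lost without Aged replicate 33 or any of the Control ovaries. H2-Q7, which is closely similar to it in sequence, went from 20.5 ± 1.91 to 42.9 ± 18.1 CPM (1.07, adjusted p = 0.0544). H2-M2 rose from 0.562 ± 0.267 to 5.71 ± 3.46 CPM (3.34, SE 0.48, adjusted p = 0.00497) and had 2.84 ± 0.749 CPM in Aged+CF. H2-T22 had a smaller log2 fold change of 0.46 (adjusted p = 0.0187), under 1.5-fold. Of the partners of B2m outside the classical family, the iron regulator Hfe was at 0.39 (adjusted p = 0.0355), the neonatal Fc receptor Fcgrt at 0.27, Mr1 at 0.15 and the lipid-presenting Cd1d1 at -0.23, so that 0 of 4 were DEGs with edgeR, also at unadjusted p. H2-Ea, which C57BL/6 mice do not express, had 0 reads in all 10 ovaries.

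Among 7 genes of peptide loading and trimming, Bcap31, the gene of an endoplasmic reticulum protein that helps export class I molecules, was a DEG in Aged vs Control (104 ± 3.06 CPM to 174 ± 40.7 CPM, log2 fold change 0.74, SE 0.14, adjusted p = 0.01). It had 114 ± 4.59 CPM in Aged+CF, below all Aged ovaries (log2 fold change -0.60, SE 0.15, adjusted p = 0.161). Tapbpl, a peptide editor related to tapasin, was at 0.53 in Aged vs Control (adjusted p = 0.0189), and the chaperones Calr and Canx at 0.18 and 0.17, both with adjusted p above the threshold. Of the 4 genes of the immunoproteasome and its activators, Psmb10, the gene of β2i, had 28.5, 30.2, 29.3 and 31.1 CPM in Control, 35.3, 50.9 and 44.9 CPM in Aged and 25.1, 25.2 and 33.3 CPM in Aged+CF. All Aged ovaries were above both other groups. It was 0.55 higher on the log2 scale in Aged vs Control (SE 0.14, adjusted p = 0.0305), under 1.5-fold, and -0.65 in Aged+CF vs Aged (SE 0.16, adjusted p = 0.161). The activator subunits Psme1 and Psme2 were at 0.51 and 0.44 in Aged vs Control and at -0.48 and -0.34 in Aged+CF vs Aged, and the assembly factor Pomp at 0.55 and -0.37, none of them called.

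Between Aged+CF and Aged, 0 of the 65 genes were DEGs with edgeR, and Bcap31 and Psmb10 were called lower at unadjusted p, a share of the list below the 4.05% of all genes. The median over the 65 was -0.19 on the log2 scale. Between Aged+CF and Control 0 were DEGs with edgeR, and at unadjusted p 4 were called higher and 1 lower, beside 3.33% and 4.36% of all genes.

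The ratio of an immunoproteasome subunit to the subunit it replaces was compared on FPKM with two-sided exact permutation tests, 9 in all. Psmb9 over Psmb6 was 0.0429 ± 0.00488 for 4 Control ovaries, 0.0636 ± 0.0163 for 3 Aged ovaries and 0.0414 ± 0.00864 for 3 Aged+CF ovaries. No Aged ovary overlapped either group, which gave a log2 difference of 0.55 from Control (exact p = 0.0571, the smallest that this test allows for 4 against 3 ovaries) and of -0.61 in Aged+CF vs Aged (exact p = 0.1, the smallest for 3 against 3), with an adjusted p of 0.45 for both. Psmb10 over Psmb7 was 0.239 ± 0.0139 for Control, 0.31 ± 0.0926 for Aged and 0.231 ± 0.0233 for Aged+CF (exact permutation p = 0.171 for Aged vs Control and 0.2 for Aged+CF vs Aged). Psmb8 over Psmb5 was 0.0635 ± 0.0145, 0.0836 ± 0.0548 and 0.0743 ± 0.014, and its highest value, 0.146, was that of Aged replicate 34. The constitutive genes Psmb5, Psmb6 and Psmb7 had log2 fold changes of 0.43, 0.03 and 0.25 in Aged vs Control, with adjusted p above the threshold.

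**Figure D3:**
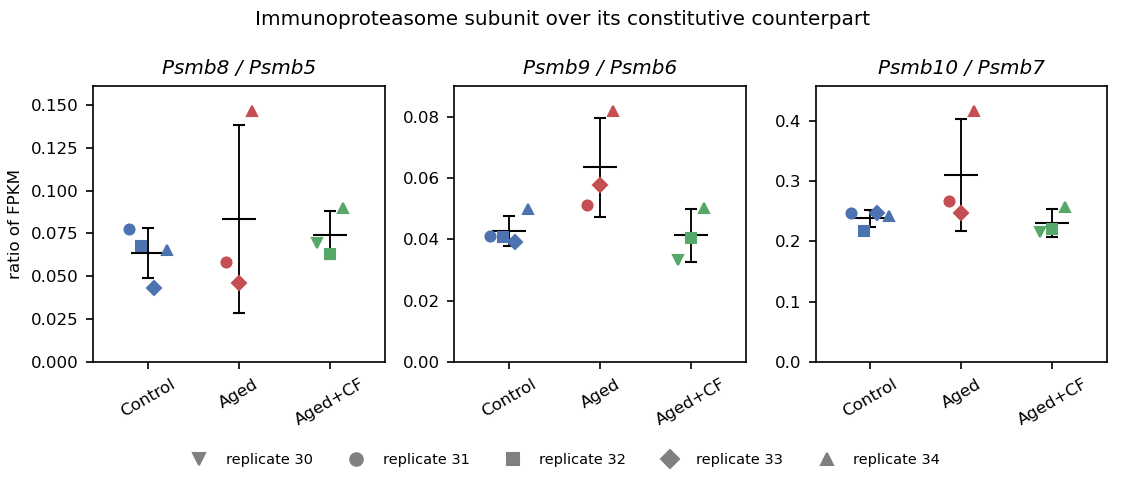
Ratio of the FPKM (vertical axes, from 0) of each immunoproteasome subunit to its constitutive counterpart in each ovary, by group, with symbols for replicate numbers and black bars for the mean ± SD (n = 4, 3 and 3). Psmb9 over Psmb6 is 0.0511 to 0.0819 in Aged, above the 0.0393 to 0.0501 of Control, and Aged replicate 34 is the highest ovary in all 3 ratios.

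Among the regulators of class I transcription, Irf1, an activator of class I genes, had a log2 fold change of 0.14 in Aged vs Control (SE 0.31), with overlap of all groups. The NF-κB subunit Nfkb1 was at 0.24, and Rfxank and Nfyc, of the complexes that bind X and Y boxes, were at 0.33 and -0.21, none of them called. Ifng itself had 4, 0, 1 and 0 reads in the Control ovaries, 0, 0 and 7 in the Aged and 1, 1 and 0 in the Aged+CF ovaries and was not tested, so a difference was not detectable at this depth. Its receptor gene Ifngr1 was a DEG, higher in Aged (31.3 ± 4.57 CPM to 55.1 ± 15.3 CPM, log2 fold change 0.82, SE 0.18, adjusted p = 0.0177), and its kinase Jak1 had a log2 fold change of -0.50 (adjusted p = 0.0252).

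Of 9 other interferon-γ targets, 0 were DEGs in Aged vs Control with edgeR and 1 was called at unadjusted p, the class II transactivator Ciita (log2 fold change 1.31, SE 0.47, adjusted p = 0.0851), which was not called without Aged replicate 34 (0.86). Gbp2 was at 0.60, Gbp3 at 0.30 and Socs1 at -0.95, with overlap of Control and Aged in all 3. Of 8 type I interferon targets, the antiviral gene Rsad2 was the DEG, rising from 6.15 ± 2.32 to 18.2 ± 6.06 CPM (log2 fold change 1.56, SE 0.33, adjusted p = 0.0148), with 19.0 ± 4.03 CPM in Aged+CF. Ifit1, Ifit3 and Irf7 were at 0.49, 0.26 and 0.14. Of the receptors that read class I molecules, 3 of 6 had enough reads to be tested. Pirb, an inhibitory receptor of myeloid and B cells, rose from 6.37 ± 1.34 to 17.3 ± 11.3 CPM (log2 fold change 1.44, SE 0.37, adjusted p = 0.029). Pirb was at 0.79 without Aged replicate 34, and its adjusted p was 0.0586 to 0.0786 with a Control ovary left out. Klrd1 and Klrc1, which form the CD94/NKG2A receptor of H2-T23, were called at unadjusted p, with log2 fold changes of 1.24 and 2.09 on 6 to 27 and 0 to 19 reads per ovary, and neither was called without Aged replicate 34.

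Markers of leukocytes moved with these genes. All 6 leukocyte markers were DEGs, higher in Aged, with a median log2 fold change of 1.12. Their summed level was 91.3 to 98.7 CPM in Control, 133 to 321 CPM in Aged and 133 to 151 CPM in Aged+CF, with none of the 6 at 0 in any group. Ptprc, the pan-leukocyte gene, had 16.9, 16.6, 15.0 and 13.6 CPM in Control, 33.5, 22.8 and 54.6 CPM in Aged and 26.8, 26.8 and 28.3 CPM in Aged+CF. Without Aged replicate 34, 3 of the 6 remained DEGs, with a median of 0.70, while the median of the 10 members was 0.48. Coro1a, Laptm5 and Cd48 lost their calls there and also with any Control ovary left out.

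Of the leukocyte classes, 4 of 7 T cell markers and 3 of 5 B cell markers were DEGs and higher in Aged (5.00% of all genes tested). Cd3d and Blk among them were not DEGs without Aged replicate 34, nor with any Control ovary left out. Cd79a lost its call without Control replicate 31, 32 or 34, and Cd3g without Control replicate 32. Without both ovaries with many oviduct reads, Cd3d, Cd2, Cd79a and Blk were not DEGs. The summed T cell markers had 9.03 to 12.6 CPM in Control, 16.8 to 44.1 CPM in Aged and 10.4 to 13.9 CPM in Aged+CF. B cell markers had 2.65 to 3.24, 6 to 29.9 and 3.1 to 4.31 CPM. Macrophage markers had 327 to 377, 434 to 673 and 407 to 526 CPM, with 1 of 8 a DEG (C1qa). The 673 CPM were those of Aged replicate 34, and without it 0 of the 8 were called with edgeR, also at unadjusted p. Endothelial markers, with 4 of 6 DEGs, had 366 to 455, 535 to 698 and 467 to 502 CPM, and Pecam1, Kdr and Tek among them were not DEGs without Control replicate 32, Control replicate 34 or Aged replicate 33. Of 4 NK and cytotoxic cell markers tested, Gzmb was a DEG higher in Aged. Its call was lost without Control replicate 32 or 33, Aged replicate 31 or 33, or both ovaries with many oviduct reads. Of 6 dendritic cell markers, Itgax was a DEG and higher. Of 3 plasma cell markers tested, Derl3 was a DEG lower in Aged and Jchain a DEG higher. The call of Jchain was lost without Aged replicate 34, Control replicate 31, 32 or 34, or both ovaries with many oviduct reads.

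Markers of the ovary's own cells moved as well. Theca and steroidogenic markers had a summed level of 2538 to 5794 CPM in Control, 8171 to 20325 CPM in Aged and 6612 to 10714 CPM in Aged+CF. Of these 4 genes, Cyp11a1 and Star, both of the first steps of steroid synthesis, were DEGs higher in Aged (log2 fold changes 1.47 and 2.83). Neither was a DEG without Control replicate 32. Insl3 went the other way, with a log2 fold change of -1.385 in Aged vs Control, and was called lower at unadjusted p in edgeR. Granulosa cell markers had 3064 to 5047 CPM in Control, 2020 to 2791 CPM in Aged and 1723 to 2637 CPM in Aged+CF, with 0 of 5 DEGs in edgeR and 2 called lower at unadjusted p (Amh and Fshr). Oocyte markers were lower too, with 6 of 8 DEGs lower in Aged (6.06% of all genes), of which 4 were not without Control replicate 34, and a summed level of 270 to 360 CPM in Control, 7.33 to 76.6 CPM in Aged and 101 to 158 CPM in Aged+CF. The part of any of these cell types in the levels of the class I genes was not tested.

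**Figure D4:**
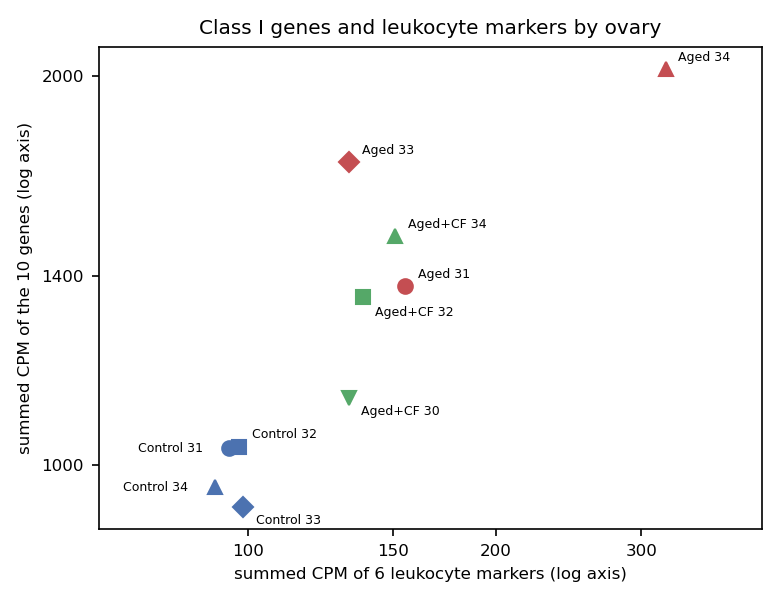
Summed CPM of the 10 class I and antigen processing genes (vertical axis, log scale) against the summed CPM of 6 leukocyte markers (horizontal axis, log scale), with a point for each ovary labelled by group and replicate number. The 4 Control ovaries lie lowest on both axes and Aged replicate 34 highest, while Aged replicate 33 has 1714 CPM of class I genes at 133 CPM of leukocyte markers and Aged replicate 31 has 1374 CPM at 155 CPM.

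The order of ovaries in both sums was not the same. Aged replicate 33 and Aged+CF replicate 30 had leukocyte sums that both rounded to 133 CPM and class I sums of 1714 and 1126 CPM. Among all 16734 genes compared, those whose log2 CPM followed the mean standardized level of the members most closely over the 10 ovaries were Ifi213 (Pearson's r = 0.97), Cd52 (0.968), C1qa (0.966), Klhl6 (0.963), Cxcr3 (0.959), Gm4070 (0.957), Lair1 (0.952) and Ly86 (0.951). All 10 ovaries and the differences between groups enter these values. Cd52 is also in the list of leukocyte markers and C1qa in that of macrophage markers. By Spearman's rho, 5 of these 8 were again among the 8 closest.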

How the data were processed

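RNA of 10 ovaries, each its own library, was used, and groups and replicate numbers were taken from the labels. Separate animals are not stated ovary by ovary, so p-values measure the spread between these samples. The authors deposited raw counts per gene and FPKM, and their processing notes name TopHat, Cufflinks 2.1.1 and GRCm38.p4, while the counting tool, annotation and strand setting are not given in the sources used here. In 100% of values the deposited FPKM equalled count over gene length and library total (relative tolerance 0.001). Totals were 15761789 to 21318254 counts, and comparison of the counts showed no library deposited more than once.

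Genes were filtered with filterByExpr, libraries scaled by TMM and all 10 ovaries fitted with edgeR 4.0.16 in R 4.3.3, with a mean per group and quasi-likelihood F tests. P-values were adjusted by the Benjamini-Hochberg method across the 18956 genes that passed the filter. Ratios were tested on log2 FPKM by exact permutation. The members and lists were chosen with earlier results of these data known. Named genes are the members, of each list up to 4 genes with the smallest p in Aged vs Control and up to 2 in Aged+CF vs Aged (mean of at least 1 CPM), the 8 genes most like the members, and Psmb5, Psmb6, Psmb7, Psmb10, Ptprc, Ifng and Irf1, and 1 gene of this rule is not reported here. H2-Ea, H2-M3, H2-Q4, H2-Q10, Klrd1, Klrc1 and the cell type markers named singly, other than Ptprc, are outside this rule. They were named after their values were seen. Genes were matched to GENCODE M21 on GRCm38 (55141 identifiers found) and promoters to RefSeq on GRCm38.p6. The fit was tested on simulated counts with known changes.

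Alternatives were DESeq2 1.42.0 size factors and Wald test, no filter, limma 3.58.1 voom with sample weights, only the compared groups, the replicate number as a block, FPKM + 0.1, Spearman's rho and leaving out each ovary. Leaving out both ovaries with many oviduct marker reads was added after the data were seen.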

Additional observations from a re-analysis of the deposited data

Results flagged for a closer look

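H2-T23 in Control was the result picked out for a sample far from its group. Control replicate 31 had 76.9 CPM against 62.2 to 63.9 CPM in the other 3 Control ovaries, and its gap to the nearest of them was 0.882 of the range of the group, above Dixon's limit for 4 samples. In all, 10 such tests were made, and chance passes the limit in about 1 of 20 groups. Without this ovary the log2 fold change of H2-T23 in Aged vs Control was 0.87 (adjusted p = 0.0276).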

How the results depend on the processing

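Of 410 values of member log2 fold changes under the alternatives, 377 kept their direction and their side of the thresholds, 18 changed sign, 8 lost a call and 7 gained one. The rise of H2-K1, H2-D1, H2-T23 and B2m in Aged vs Control kept its sign under every alternative run, with values of 0.56 to 1.04, 0.58 to 1.003, 0.65 to 0.93 and 0.77 to 1.16. The cause of the changes given here was not tested, and leaving out ovaries also leaves fewer samples. Depth limits Nlrc5 and Psmb9 most, with 174 and 141 reads in their lowest ovaries.

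In Aged vs Control, 2 members were DEGs with limma voom at both thresholds, since H2-K1 (0.56) and H2-D1 (0.58) came under 1.5-fold. Genes called in Aged vs Control numbered 1081 to 3112 with an ovary left out, the lowest 2 without Control replicates 32 (1081) and 34 (1090). Without both ovaries with many oviduct reads, Nlrc5 was at -0.014. Between Aged+CF and Aged, all genes called by adjusted p numbered 2 without a filter, 441 with DESeq2, 88 with limma, 2 with only these groups in the fit, 289 without both ovaries with many oviduct reads and 1 to 556 with an ovary left out (10, 6 and 556 without Aged replicates 31, 33 and 34). At unadjusted p they numbered 1170 to 2360 with an ovary left out, highest without Aged replicate 34, and 2313 without both oviduct-rich ovaries. Of the members, DESeq2 called 2 by adjusted p (B2m, adjusted p = 0.000824, and Psmb9, 0.0497), and limma called 0 at unadjusted p.

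In Aged+CF vs Control, all genes called by adjusted p numbered 528 with DESeq2, 508 with limma, 487 with only these groups, 159 without both oviduct-rich ovaries and 7 to 24 with an ovary left out, and at unadjusted p 859 to 1496, lowest without Aged+CF replicate 32. Of the members, 2 were called by adjusted p with DESeq2 and 1 with only these groups (Tap2). At unadjusted p 2 were called with DESeq2 size factors, with DESeq2 and with only these groups, 0 with limma and 0 to 3 with an ovary left out.

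Changes of sign among members were these. With an ovary left out in Aged+CF vs Aged, H2-T23 ran from -0.323 to 0.062, Tap2 from -0.041 to 0.327, Tapbp from -0.12 to 0.088 and Nlrc5 from -0.427 to 0.212. With limma Tapbp was at 0.079 and Nlrc5 at 0.082, and without both oviduct-rich ovaries at 0.064 and 0.213. In Aged+CF vs Control with an ovary left out, Tap1 ran from -0.034 to 0.468 and Nlrc5 from -0.063 to 0.439. The log2 difference of Psmb8 over Psmb5 ran from -0.261 to 0.576 in Aged vs Control and from -0.333 to 0.503 in Aged+CF vs Aged, and that of Psmb9 over Psmb6 from -0.218 to 0.084 in Aged+CF vs Control.

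Replicate numbers are shared between groups of different age or treatment, and the labels do not say what a shared number means. Deviations of same-numbered ovaries correlated at -0.185 to 0.153. With the replicate number as a block, 80 genes and 0 members were called by adjusted p in Aged vs Control, where B2m had an adjusted p of 0.0589 and the other 3 DEGs 0.0659 to 0.0692. In Aged+CF vs Aged, 0 genes were called by adjusted p and 888 at unadjusted p under the block, with H2-T23 at 0.087, Tap1 at 0.048, Tapbp at 0.013 and Nlrc5 at 0.071. In Aged+CF vs Control, 9 genes were called by adjusted p under the block and 2 members at unadjusted p.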
